A study of Mus musculus with 8 samples.

Results

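Interferon-stimulated genes are the genes a cell switches on when interferon binds its receptors. The 37 genes examined here were taken by name as a list, and 33 of them had an array probe set that names only that gene, among 19938 genes measured in all. Gbp2, Igtp, Isg15 and Ifi44 had no such probe set and are not analysed here. The 33 genes were sorted by role into 8 type I type genes (the Ifit and Oas families), 3 gamma type genes (Gbp3, Irgm1 and Ubd), 4 sensors of viral nucleic acid, 4 transcription factors, 5 genes of ubiquitin-like and ADP-ribose modification, and 9 other antiviral genes.

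Each of the 8 samples was small-intestinal epithelium isolated from male, 8-week-old mice of the outbred ICR stock and run on 1 Affymetrix array. The intestine had been transfected 4 days before. In the siRNA arm, 3 arrays came from intestine given an siRNA against GFP (siGFP, the controls) and 3 from intestine given siRNAs against YAP and TAZ (siYAP/TAZ). In the shRNA arm, plasmids coding for shRNAs were used, against LacZ on 1 array (shLacZ, the control) and against YAP and TAZ on 1 array (shYAP/TAZ). All 4 groups therefore carried transfected nucleic acid, and no group of untreated mice was analysed here. YAP and TAZ are the coactivators held back by the Hippo pathway. The labels name the control array of each knockdown array, which gives siRNA comparisons 1, 2 and 3 and 1 shRNA comparison, but they do not say whether the arrays come from separate mice. The p-values therefore cover only variation among these samples, and it may be technical. The labels do not give the share of cells that took up the nucleic acid.

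The target transcripts did not stand lower beyond the spread of the arrays. Yap1 differed by -0.12 on the log2 scale between the siYAP/TAZ and siGFP means (95% confidence interval -0.84 to 0.61), and Wwtr1, which encodes TAZ, differed by -0.28 (-1.09 to 0.53). In the shRNA comparison, with 1 array per group, Yap1 differed by -0.09 and Wwtr1 by 0.06. Wwtr1 lay between 5.36 and 6.52 over the 8 arrays, near or below the array medians (6.25 to 6.58 before normalization). A fall in this dim transcript could therefore go unseen. Groups are therefore called by their labels. Epithelial markers were bright, with Epcam between 11.47 and 12.38 and Vil1 between 11.08 and 12.64 over the 8 arrays (log2 intensity). The first principal component over all genes held 56.8% of the variance and set siYAP/TAZ 2, siGFP 3 and siYAP/TAZ 3 (scores 64.5, 63.5 and 57.5) apart from the other 5 arrays (-70.3 to -1.67), across the labelled groups.

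Type I and type III interferons act through receptors that activate a complex holding STAT2 and IRF9, which binds the interferon-stimulated response element. Interferon gamma acts through a separate receptor towards gamma activated sites, and IRF1 carries part of that response. Many genes answer both kinds of interferon, so the type I and gamma labels mark a leaning and not an exclusive source. Gut epithelium responds to type III interferon in particular as an antiviral barrier, and to interferon gamma from lymphocytes within and beneath it.

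Interferon-stimulated genes varied strongly from array to array. A member's range over the 8 arrays was 3.07 on the log2 scale in the median, against 1.13 for all genes, and 26 of the 33 members had a range of at least 2. Members were highest in siYAP/TAZ 3 (15 members), siGFP 3 (10), siYAP/TAZ 2 (7) or siYAP/TAZ 1 (1), and 21 had their lowest value in shYAP/TAZ, 8 in shLacZ and 4 in siYAP/TAZ 1. Both arrays of the shRNA arm thus lay low for most members, and a control array of the siRNA arm lay among the highest. siYAP/TAZ 3, siGFP 3 and siYAP/TAZ 2 are also the arrays that the first principal component over all genes sets apart. These counts of members were not made over all genes, so they do not show an order of arrays particular to the members.

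**Figure D1:**
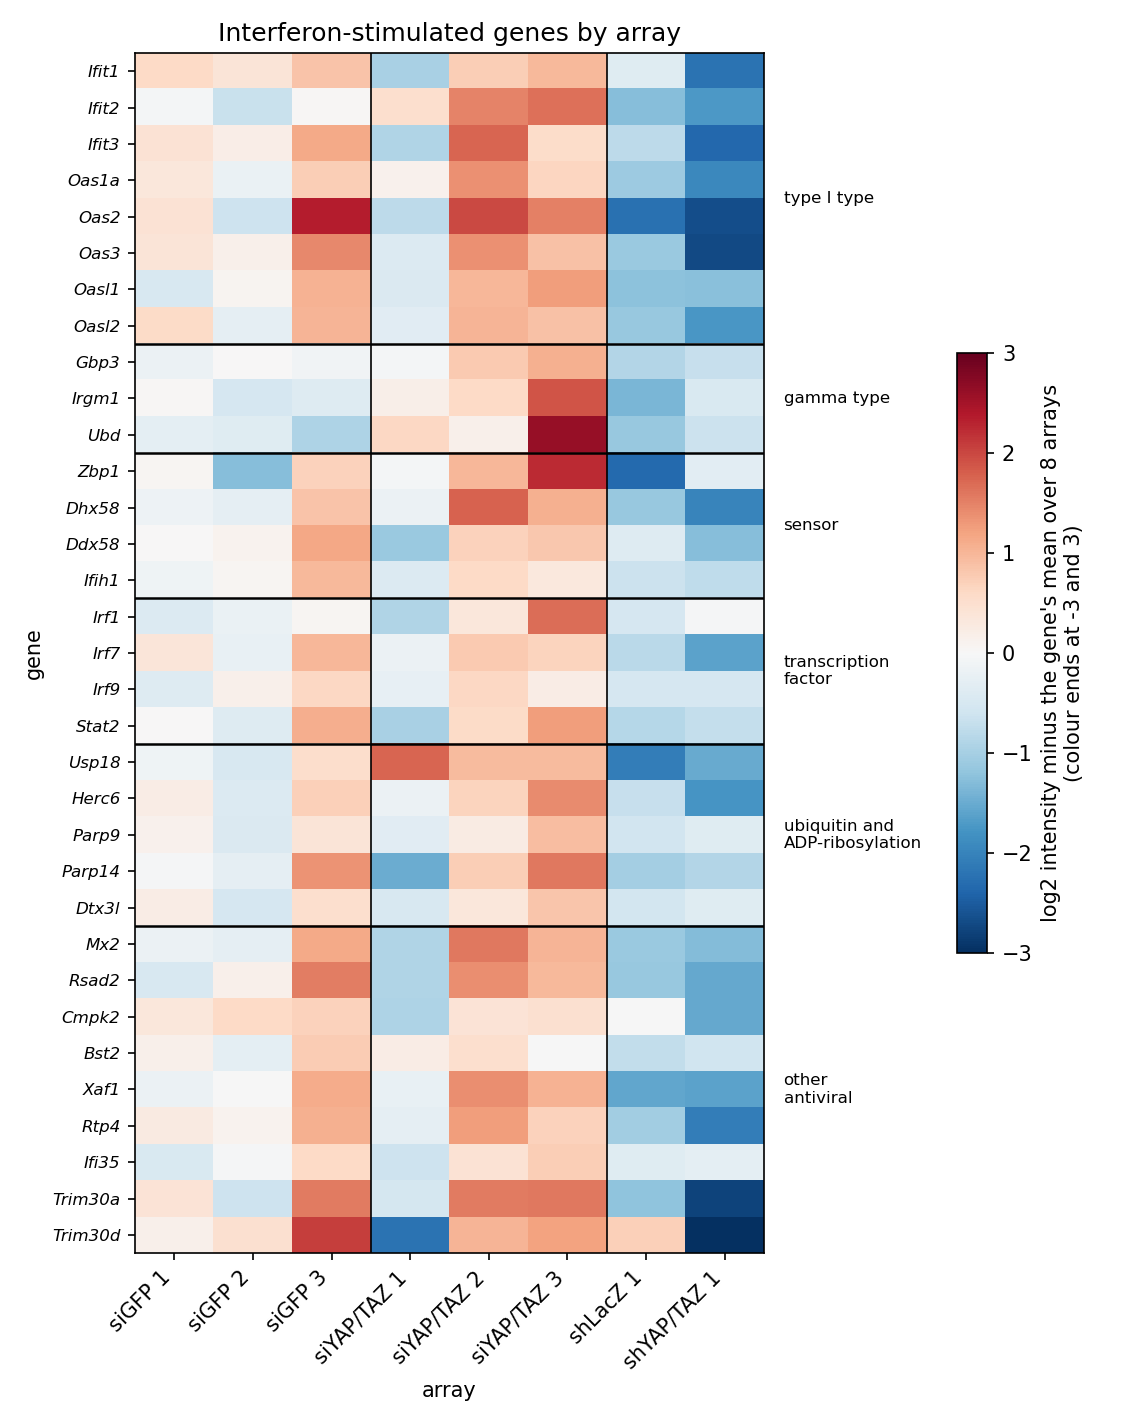
Colours show the log2 intensity of each of 33 measured interferon-stimulated genes (rows, by role) on each of 8 arrays (columns, siGFP 1 to 3, siYAP/TAZ 1 to 3, shLacZ and shYAP/TAZ), minus that gene's mean over the 8 arrays, with vertical lines between the siGFP, siYAP/TAZ and shRNA-arm arrays. Most rows are red in siGFP 3, siYAP/TAZ 2 and siYAP/TAZ 3 and blue in shLacZ and shYAP/TAZ, while Ubd and Irgm1 are reddest in siYAP/TAZ 3.

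In the siRNA arm no member passed the test. limma called 0 of 19938 genes higher and 0 lower at an adjusted p of 0.05 (0% in each direction; smallest adjusted p of 1.00 for any gene and for any member). At an unadjusted p under 0.05 it gave 237 genes, or 1.19%, and 4 members: Ifit2, Usp18, Ubd and Irgm1. All 4 were higher, as were 0.426% of all genes at that p. The 1.19% lies below the share of 0.05 that p-values without any effect would give. The unadjusted p-values may therefore be poorly calibrated, and the reason was not tested. The same 4 were the members whose 3 siYAP/TAZ arrays all lay above the 3 siGFP arrays, a pattern seen in 1.6% of all genes. No member had all its siYAP/TAZ arrays below the siGFP arrays, against 2.99% of all genes. Over the 33 members the median log2 difference was 0.15, with 25 higher and 8 lower in the mean, beside a median of -0.02 and 46.4% higher over all genes. Single arrays moved these values: dropping siGFP 1, 2 or 3 gave a member median of 0.05, -0.03 or 0.48, and dropping siYAP/TAZ 1, 2 or 3 gave 0.71, -0.09 or -0.08. Leaving out siYAP/TAZ 1 also put 8 members above all siGFP arrays, where 11.2% of all genes then lay above, and 0 members passed the adjusted test.

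Ifit genes encode proteins with tetratricopeptide repeats that bind foreign RNA or restrain its translation. Ifit1 had log2 intensities of 9.63, 9.42 and 9.89 in siGFP 1 to 3, 8.06, 9.76 and 9.996 in siYAP/TAZ 1 to 3, 8.66 in shLacZ and 6.83 in shYAP/TAZ. Only siYAP/TAZ 1 left the siGFP range downwards, and the log2 difference of the means was -0.37 (SE 0.50). Ifit3 had 8.43, 8.19 and 9.15 in siGFP 1 to 3, 7.10, 9.74 and 8.54 in siYAP/TAZ 1 to 3, 7.22 in shLacZ and 5.64 in shYAP/TAZ. It can share signal with the near-identical Ifit3b, its siRNA groups overlapped, and the mean difference was -0.13 (SE 0.61). Ifit2, the neighbour of Ifit1 and Ifit3 in the same gene cluster, had 6.21, 5.60 and 6.30 in siGFP 1 to 3, 6.77, 7.76 and 7.91 in siYAP/TAZ 1 to 3, 4.99 in shLacZ and 4.55 in shYAP/TAZ. Its siRNA groups did not overlap.

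Ifit2 thus stood apart from the other Ifit genes by its order of arrays. The siGFP mean was 6.04 ± 0.38 (SD, n = 3) and the siYAP/TAZ mean 7.48 ± 0.62 (SD, n = 3), 2.72-fold higher (log2 difference 1.45, SE 0.39; exact two-sided permutation p = 0.1, the smallest that 3 arrays against 3 allow). It was the member with the smallest unadjusted limma p, rank 16 of all genes. In siRNA comparison 1, where Ifit1 and Ifit3 differed by -1.57 and -1.33, Ifit2 differed by 0.57. Whether Ifit2 differs from its neighbours in its response was not tested.

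Oas genes encode sensors of double-stranded RNA that make a short oligoadenylate, which activates the nuclease RNase L, and the Oasl genes are their relatives. Oas1a had log2 intensities of 7.23, 6.71 and 7.64 in siGFP 1 to 3, 7.03, 8.26 and 7.55 in siYAP/TAZ 1 to 3, 5.80 in shLacZ and 4.97 in shYAP/TAZ. Oas2 had 8.94, 7.87 and 10.86 in siGFP 1 to 3, 7.70, 10.49 and 10.01 in siYAP/TAZ 1 to 3, 6.26 in shLacZ and 5.84 in shYAP/TAZ. Oas3 had 8.34, 8.11 and 9.39 in siGFP 1 to 3, 7.55, 9.33 and 8.82 in siYAP/TAZ 1 to 3, 6.84 in shLacZ and 5.24 in shYAP/TAZ. In each of these 3 genes the highest siRNA-arm arrays were siGFP 3, siYAP/TAZ 2 and siYAP/TAZ 3, and both arrays of the shRNA arm lay below all the others. Oas1a can share signal with the other, similar Oas1 copies. Oasl1 had 9.60, 10.17 and 11.13 in siGFP 1 to 3, 9.66, 11.09 and 11.34 in siYAP/TAZ 1 to 3, 8.85 in shLacZ and 8.83 in shYAP/TAZ. Oasl2 had 11.49, 10.65 and 11.94 in siGFP 1 to 3, 10.57, 11.94 and 11.80 in siYAP/TAZ 1 to 3, 9.78 in shLacZ and 9.18 in shYAP/TAZ. The siRNA groups overlapped for all 5 of these genes, with mean differences from -0.05 for Oas3 (SE 0.52) to 0.42 for Oas1a (SE 0.40).

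The 8 type I type genes together had a median log2 difference of 0.13 in the siRNA arm, with 5 higher and 3 lower in the mean, and no direction that held for every array. It became 0.04, -0.29 or 0.51 when siGFP 1, 2 or 3 was dropped, and 0.63, -0.27 or -0.12 when siYAP/TAZ 1, 2 or 3 was dropped. Taken as the median of their levels relative to each gene's own mean over the 8 arrays, siYAP/TAZ 2 (1.37), siGFP 3 (1.04) and siYAP/TAZ 3 (0.92) were high, siGFP 1 (0.41), siGFP 2 (-0.05) and siYAP/TAZ 1 (-0.41) lay between, and shLacZ (-1.12) and shYAP/TAZ (-2.07) were low. The 3 high arrays are those that the first principal component sets apart, and the part of that wider difference between arrays in the type I levels was not tested. In such isolates, fewer cells with the response and less of its RNA per cell cannot be told apart.

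Gamma type genes gave another order of arrays. Ubd, a ubiquitin-like modifier that marks proteins for the proteasome, had log2 intensities of 5.71, 5.64 and 5.09 in siGFP 1 to 3, 6.63, 6.16 and 8.63 in siYAP/TAZ 1 to 3, 4.87 in shLacZ and 5.36 in shYAP/TAZ. Irgm1, a GTPase of membrane defence and autophagy, had 8.34, 7.80 and 7.91 in siGFP 1 to 3, 8.48, 8.89 and 10.19 in siYAP/TAZ 1 to 3, 6.94 in shLacZ and 7.85 in shYAP/TAZ. Gbp3, a guanylate-binding protein that acts on vacuoles holding pathogens, had 5.87, 6.06 and 5.94 in siGFP 1 to 3, 5.99, 6.82 and 7.12 in siYAP/TAZ 1 to 3, 5.16 in shLacZ and 5.36 in shYAP/TAZ. For all 3 genes siYAP/TAZ 3 was the highest array and shLacZ the lowest. The siRNA groups did not overlap for Ubd and Irgm1, while siYAP/TAZ 1 lay within the siGFP range for Gbp3.

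For Ubd the siGFP mean was 5.48 ± 0.34 (SD, n = 3) and the siYAP/TAZ mean 7.14 ± 1.31 (SD, n = 3), 3.16-fold higher (log2 difference 1.66, SE 0.59). The exact two-sided permutation p of 0.1 is the smallest possible and follows from the lack of overlap. Without siYAP/TAZ 3, the array that set the siYAP/TAZ mean, the difference was 0.92. Irgm1 had 8.02 ± 0.28 (SD, n = 3) and 9.19 ± 0.89 (SD, n = 3), 2.26-fold higher (log2 difference 1.17, SE 0.45), and 0.67 without siYAP/TAZ 3. Gbp3 differed by 0.69 (SE 0.35), and by 0.45 without siYAP/TAZ 3. The median of the 3 genes was 1.17 with all arrays and 0.67 without siYAP/TAZ 3, against 0.13 and -0.12 for the type I type genes. Relative to each gene's mean over the 8 arrays, the gamma type median was 1.89 in siYAP/TAZ 3, 0.59 in siYAP/TAZ 2, 0.18 in siYAP/TAZ 1, -0.17, -0.37 and -0.39 in siGFP 1, 2 and 3, -0.65 in shYAP/TAZ and -1.14 in shLacZ. By this measure the siGFP and siYAP/TAZ arrays did not overlap, and siGFP 3, which was high for the type I type genes, was the lowest siRNA-arm array. With only 3 genes of this kind measured, of 5 listed, the gamma type median rests on few probe sets.

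**Figure D2:**
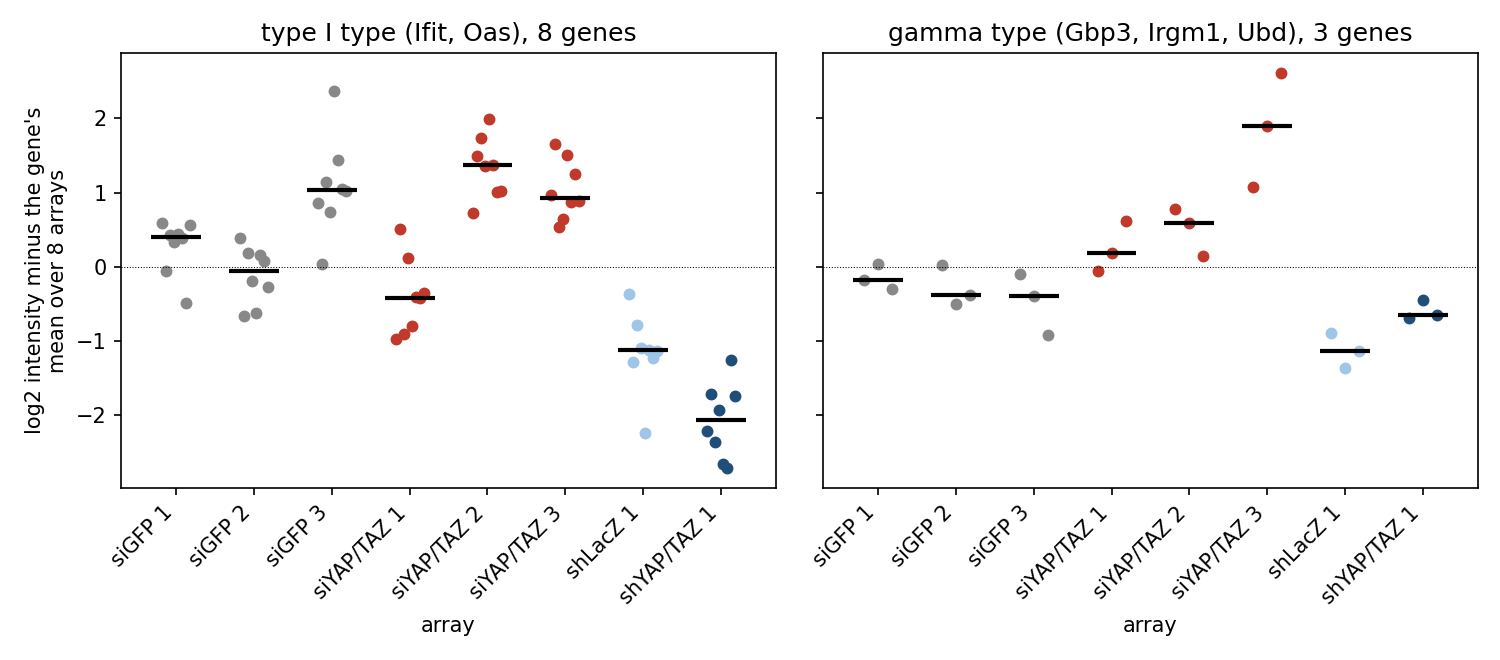
Points are single genes and black bars their median; the vertical axis is log2 intensity minus the gene's mean over 8 arrays, for 8 type I type genes (left) and 3 gamma type genes (right), by array. The type I medians are highest in siYAP/TAZ 2 (1.37), siGFP 3 (1.04) and siYAP/TAZ 3 (0.92), while the gamma type medians are above 0 in the siYAP/TAZ arrays only and reach 1.89 in siYAP/TAZ 3.

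Set against its own control array, each kind of gene behaved differently from comparison to comparison. The type I type median was -0.85, 1.42 and -0.12 in siRNA comparisons 1, 2 and 3 and -0.72 in the shRNA comparison, with 2, 8, 3 and 0 of 8 genes higher. The gamma type median was 0.15, 0.76, 2.28 and 0.49 in the same order, with all 3 genes higher in each comparison. Without normalization between arrays, 2 of the 3 were higher in siRNA comparison 1. With a constant subtracted before the log2 scale, the shRNA medians were -1.16 for the type I type and 0.87 for the gamma type genes. The gamma median was the higher of the 2 medians by 1.00 in siRNA comparison 1, by 2.40 in siRNA comparison 3 and by 1.21 in the shRNA comparison, and differed by -0.66 in siRNA comparison 2. Higher values in all 4 comparisons were found for 4 members, Gbp3, Irgm1, Ubd and Usp18, and for 6.02% of all genes; without normalization Gbp3 was not among them. In the 3 siRNA comparisons alone, 6 members were higher each time, these 4 with Ifit2 and Oasl1, and 9.38% of all genes. Lower values in all 4 were found for 1 member, Cmpk2, and for 8.95% of all genes.

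The promoters of the genes whose arrays ran in these different orders are shown for their interferon motifs. Each sequence is the 250 bases before a transcription start in the RefSeq table for GRCm38.p6, in the direction of the gene, with matches to the response element pattern (TTTC, any 2 bases, TTTC, on either strand) in capitals. Ifit1 and Ifit3 are type I type genes whose siRNA groups overlapped, and Ifit2 is their neighbour whose groups did not. Gbp3, Irgm1 and Ubd are the gamma type genes. Ifit1 lies at chr19:34640639-34640888 on the plus strand, Ifit3 at chr19:34583279-34583528 (plus) and Ifit2, at the upstream of its 2 listed starts, at chr19:34550444-34550693 (plus). Gbp3, also at the upstream of 2 starts, lies at chr3:142559794-142560043 (plus), Irgm1 at chr11:48871421-48871670 (minus) and Ubd at chr17:37193642-37193891 (plus).
Ifit1: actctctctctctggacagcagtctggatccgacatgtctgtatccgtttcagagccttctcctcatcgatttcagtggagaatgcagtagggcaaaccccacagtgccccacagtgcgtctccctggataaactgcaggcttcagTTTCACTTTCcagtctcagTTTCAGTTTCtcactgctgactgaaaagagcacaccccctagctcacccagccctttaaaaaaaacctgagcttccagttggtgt
Ifit3: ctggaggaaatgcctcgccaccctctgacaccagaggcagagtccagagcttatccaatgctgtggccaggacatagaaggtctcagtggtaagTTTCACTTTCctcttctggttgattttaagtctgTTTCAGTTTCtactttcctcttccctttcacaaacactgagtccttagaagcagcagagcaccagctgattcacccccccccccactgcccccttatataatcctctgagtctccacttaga
Ifit2: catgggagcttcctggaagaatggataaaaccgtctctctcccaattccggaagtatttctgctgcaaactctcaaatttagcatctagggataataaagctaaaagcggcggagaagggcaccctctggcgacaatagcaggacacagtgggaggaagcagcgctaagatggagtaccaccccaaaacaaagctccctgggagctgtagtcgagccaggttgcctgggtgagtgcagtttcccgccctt
Gbp3: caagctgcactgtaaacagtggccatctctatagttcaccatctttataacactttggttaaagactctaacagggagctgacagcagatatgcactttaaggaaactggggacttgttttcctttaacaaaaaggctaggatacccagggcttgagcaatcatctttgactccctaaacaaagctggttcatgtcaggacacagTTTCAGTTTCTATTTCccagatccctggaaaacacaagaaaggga
Irgm1: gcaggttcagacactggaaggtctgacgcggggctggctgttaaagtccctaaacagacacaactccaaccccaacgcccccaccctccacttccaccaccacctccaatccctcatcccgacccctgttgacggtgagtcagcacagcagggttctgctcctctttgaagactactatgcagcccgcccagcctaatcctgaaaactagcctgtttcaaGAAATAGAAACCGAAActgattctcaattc
Ubd: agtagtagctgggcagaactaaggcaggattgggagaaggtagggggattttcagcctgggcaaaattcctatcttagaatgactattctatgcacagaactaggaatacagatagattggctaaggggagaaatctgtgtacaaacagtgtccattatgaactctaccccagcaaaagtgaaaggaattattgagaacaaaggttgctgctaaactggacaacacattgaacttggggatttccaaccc

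Ifit1 held 2 matches, starting 104 and 85 bases before the start, and Ifit3 held 2, at 156 and 122 bases. Gbp3 held 2 overlapping matches, at 45 and 39 bases, and so did Irgm1, at 30 and 24 bases. No match lay in the windows of Ubd or in either window of Ifit2. In the whole table windows, which run to 50 bases after the start, 13 of the 25 members with a promoter entry held the pattern in 14 of 30 windows, or 46.7%, against 3.44% of 32851 windows of that length. By kind, 4 of 7 type I type genes and 2 of 3 gamma type genes held it. Besides Ifit2, the type I type genes Oasl1 and Oasl2 held no match. The gamma activated site pattern TTCNNNGAA, which reads the same on both strands and can overlap the first pattern, was in 16.7% of the member windows and 8.3% of all windows. It was in 2 of 7 type I type genes, one of them Ifit2, and in 0 of 3 gamma type genes. These are matches of letters within short windows at the listed starts, and no binding was measured. A window without a match does not show that the gene lacks the element. Whether the matches go with the order of arrays was not tested.

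Sensors detect viral nucleic acid in the cytosol. Zbp1, which senses Z-form nucleic acid and can start cell death, had log2 intensities of 8.94, 7.60 and 9.57 in siGFP 1 to 3, 8.83, 9.89 and 11.13 in siYAP/TAZ 1 to 3, 6.55 in shLacZ and 8.57 in shYAP/TAZ. It differed by 1.25 in the siRNA arm (SE 0.65; 0.65 without siYAP/TAZ 3) with overlapping groups, and by 2.02, or 4.06-fold, in the shRNA comparison, where it was the only member at least 2-fold higher (1.84% of all genes). Dhx58, which encodes LGP2, a regulator of the RNA helicase sensors, had 6.75, 6.62 and 7.74 in siGFP 1 to 3, 6.72, 8.66 and 7.96 in siYAP/TAZ 1 to 3, 5.76 in shLacZ and 4.91 in shYAP/TAZ. Its siRNA difference was 0.74 (SE 0.52), carried by siYAP/TAZ 2, without which it was 0.30. The helicase sensors themselves, Ddx58 (RIG-I) and Ifih1 (MDA5), differed by -0.29 and -0.13, with overlapping groups. In siRNA comparison 1 all 4 sensors were lower, and in siRNA comparison 2 all 4 were higher.

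Among the transcription factors, Irf1, the early factor of the gamma response, had log2 intensities of 8.93, 9.13 and 9.39 in siGFP 1 to 3, 8.44, 9.67 and 11.01 in siYAP/TAZ 1 to 3, 8.83 in shLacZ and 9.31 in shYAP/TAZ. Like the gamma type genes it was highest in siYAP/TAZ 3, but siYAP/TAZ 1 was its lowest array. Its siRNA difference was 0.55 (SE 0.57), and -0.10 without siYAP/TAZ 3. A second, dimmer probe set of Irf1 differed by -0.22 and was highest in siGFP 3, so the probe sets shared neither sign nor highest array. Irf9, the DNA-binding part of the type I complex, had the narrowest range of any member, 1.12. It had 8.14, 8.67 and 9.13 in siGFP 1 to 3, 8.28, 9.14 and 8.74 in siYAP/TAZ 1 to 3, 8.02 in shLacZ and 8.02 in shYAP/TAZ. Irf7, the amplifier of type I interferon production, and Stat2, the partner of IRF9, each differed by 0.05 in the siRNA arm, with SEs of 0.41 and 0.60. Irf7 differed by -0.79 in the shRNA comparison and Stat2 by 0.14.

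Usp18 removes the ubiquitin-like protein ISG15 from its targets and damps signalling at the type I receptor. It had log2 intensities of 8.79, 8.43 and 9.45 in siGFP 1 to 3, 10.67, 9.88 and 9.87 in siYAP/TAZ 1 to 3, 6.85 in shLacZ and 7.41 in shYAP/TAZ. The siRNA groups did not overlap, and Usp18 was the only member with its highest value in siYAP/TAZ 1, an array in which 25 members lay below their control. Its means were 8.89 ± 0.52 (SD, n = 3) and 10.14 ± 0.46 (SD, n = 3), 2.38-fold apart (log2 difference 1.25, SE 0.38). Here, too, the exact two-sided permutation p of 0.1 is the smallest possible and follows from the lack of overlap. Leaving out single arrays gave differences of 0.99 to 1.53. In siRNA comparison 1 Usp18 differed by 1.89 while the type I type median was -0.85. Herc6, a ligase that attaches ISG15 in mice, had 8.87, 8.24 and 9.36 in siGFP 1 to 3, 8.47, 9.31 and 10.07 in siYAP/TAZ 1 to 3, 7.94 in shLacZ and 6.86 in shYAP/TAZ. It differed by 0.46 (SE 0.46) with overlapping groups and was 2.12-fold lower in the shRNA comparison.

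Parp9 and Dtx3l, which form a complex of an ADP-ribosyltransferase family protein and a ubiquitin ligase, and Parp14, a mono-ADP-ribosyltransferase, differed by 0.25, 0.15 and -0.06 in the siRNA arm. All 3 were lower in siRNA comparison 1, by values from -1.45 for Parp14 to -0.47 for Parp9. All were higher in siRNA comparison 2, by 0.68 to 1.01, and in the shRNA comparison they differed by 0.13 to 0.21. In shYAP/TAZ these genes therefore lay slightly above their control, where the Ifit and Oas genes lay below it.

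**Figure D3:**
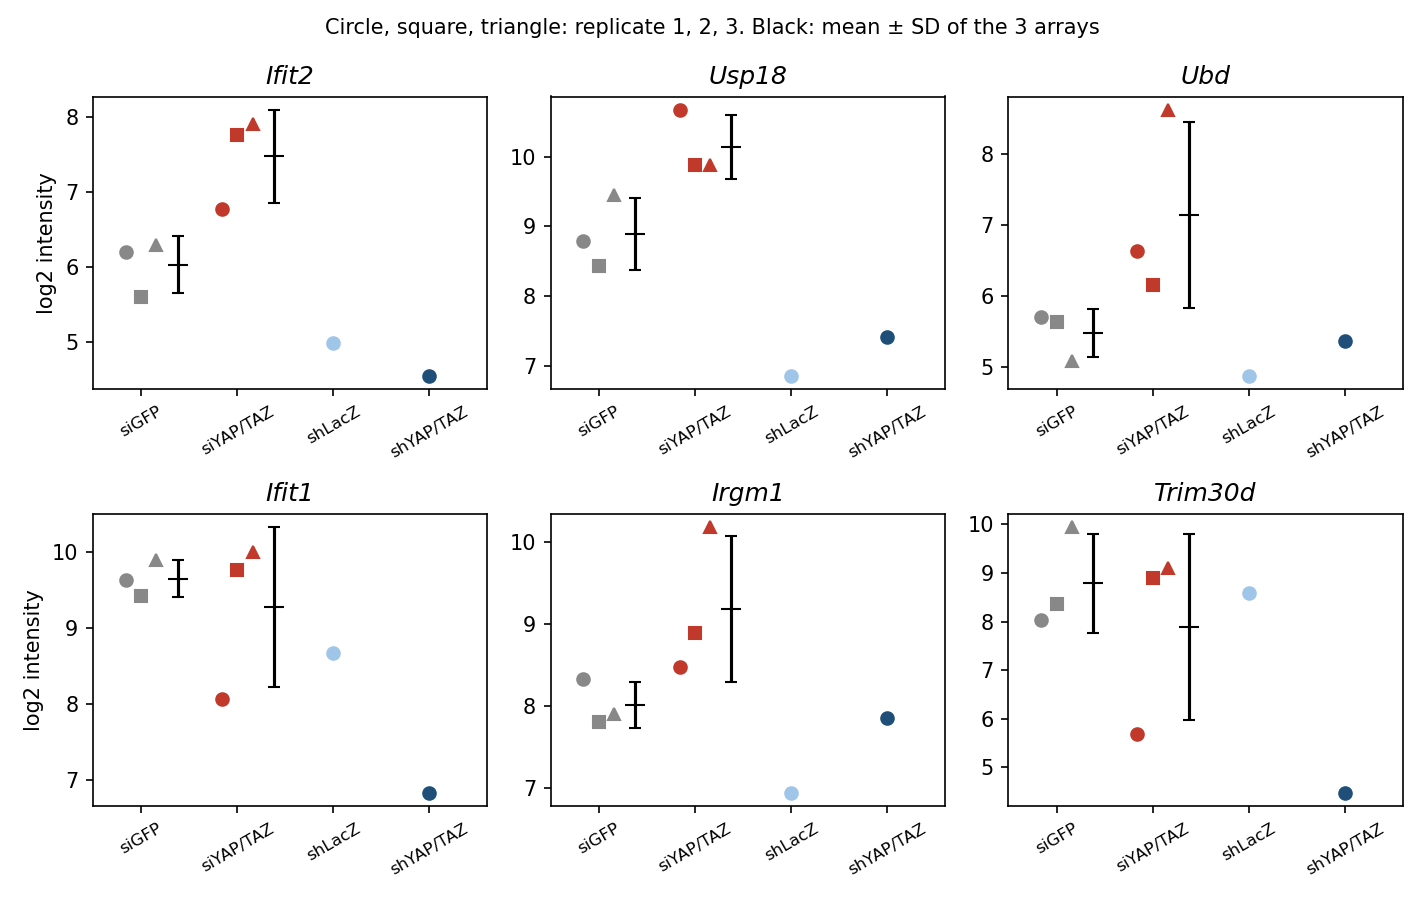
Log2 intensity of 6 members on each array by group; circle, square and triangle are replicates 1, 2 and 3, and black bars are the mean ± SD of the 3 arrays in the siRNA arm (axes do not start at 0 and differ by gene). Ifit2, Usp18, Ubd and Irgm1 have no overlap between siGFP and siYAP/TAZ, while Ifit1 and Trim30d are low in siYAP/TAZ 1 and shYAP/TAZ.

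Of the other antiviral genes, Cmpk2, a mitochondrial nucleotide kinase whose gene neighbours Rsad2, had log2 intensities of 8.75, 9.003 and 9.10 in siGFP 1 to 3, 7.48, 8.82 and 8.89 in siYAP/TAZ 1 to 3, 8.41 in shLacZ and 6.87 in shYAP/TAZ. It differed by -0.55 (SE 0.41) in the siRNA arm, and by -0.10 without siYAP/TAZ 1. Trim30d, a tripartite motif protein of the Trim30 family, had 8.04, 8.37 and 9.95 in siGFP 1 to 3, 5.68, 8.90 and 9.09 in siYAP/TAZ 1 to 3, 8.60 in shLacZ and 4.47 in shYAP/TAZ. Only siYAP/TAZ 1 and shYAP/TAZ were low, each paired with a control array that was not. The siRNA difference of Trim30d was -0.90 (SE 0.89) and turned to 0.21 without siYAP/TAZ 1. In the shRNA comparison it was 17.5-fold lower (log2 difference -4.13), the gene ranked 4 from the bottom of 19938. Trim30a, a similar sequence that can share signal with it, was 2.97-fold lower there, and its siRNA differences in comparisons 1, 2 and 3 were -0.94, 2.17 and 0.02 against -2.36, 0.53 and -0.86 for Trim30d.

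The remaining 6 genes, Mx2 (a dynamin-like GTPase), Rsad2 (viperin), Bst2 (tetherin, which holds virus at the cell surface), Xaf1, Rtp4 and Ifi35, differed by 0.04 to 0.44 in the siRNA arm with overlapping groups. In siRNA comparison 2 all 6 were higher, by 0.45 for Ifi35 to 1.86 for Mx2. Rsad2 and Cmpk2, neighbours in the genome, differed there by 1.26 and -0.18.

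The shRNA comparison has 1 array per group and no replicate check. Of the 33 members 21 were lower and 12 higher, beside 52.2% and 47.8% of all genes, with a median of -0.19 (-0.38 with a constant subtracted before the log2 scale). At least 2-fold lower were 8 members, against 2.76% of all genes: Trim30d, Ifit1, Oas3, Ifit3, Trim30a, Cmpk2, Herc6 and Rtp4. Ifit1 was 3.57-fold lower, Oas3 3.03-fold and Ifit3 2.99-fold. All 8 type I type genes were lower, from -1.84 for Ifit1 to -0.02 for Oasl1, while Gbp3, Irgm1 and Ubd differed by 0.20, 0.91 and 0.49. Myeloid markers moved with this comparison, 12 of 12 measured higher with a median of 0.80, among them Csf1r at 1.49. Their part in the member values was not tested.

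Members also went different ways among the siRNA comparisons. In siRNA comparison 1, 25 of 33 members were lower, against 53% of all genes, and 8 higher, against 47%, with a median of -0.47, and 7 were at least 2-fold lower (2.34% of all genes). In siRNA comparison 2, 32 of 33 were higher, against 51.1%, and only Cmpk2 was lower, against 48.9%, with a median of 1.01. There 18 were at least 2-fold higher (4.79%) and 0 at least 2-fold lower (8.36%). In siRNA comparison 3, 17 were higher and 16 lower, against 45.5% and 54.5%, with a median of 0.02. There 6 members were at least 2-fold higher (2.16%), namely Ubd, Irgm1, Irf1, Ifit2, Zbp1 and Gbp3. Irf1 counts here by its brighter probe set, and the dimmer one differed by -0.036. The knockdown array of comparison 1 was thus the low one for the type I type genes, that of comparison 2 was high against a middling control, and that of comparison 3 was high against a control that was also high.

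**Figure D4:**
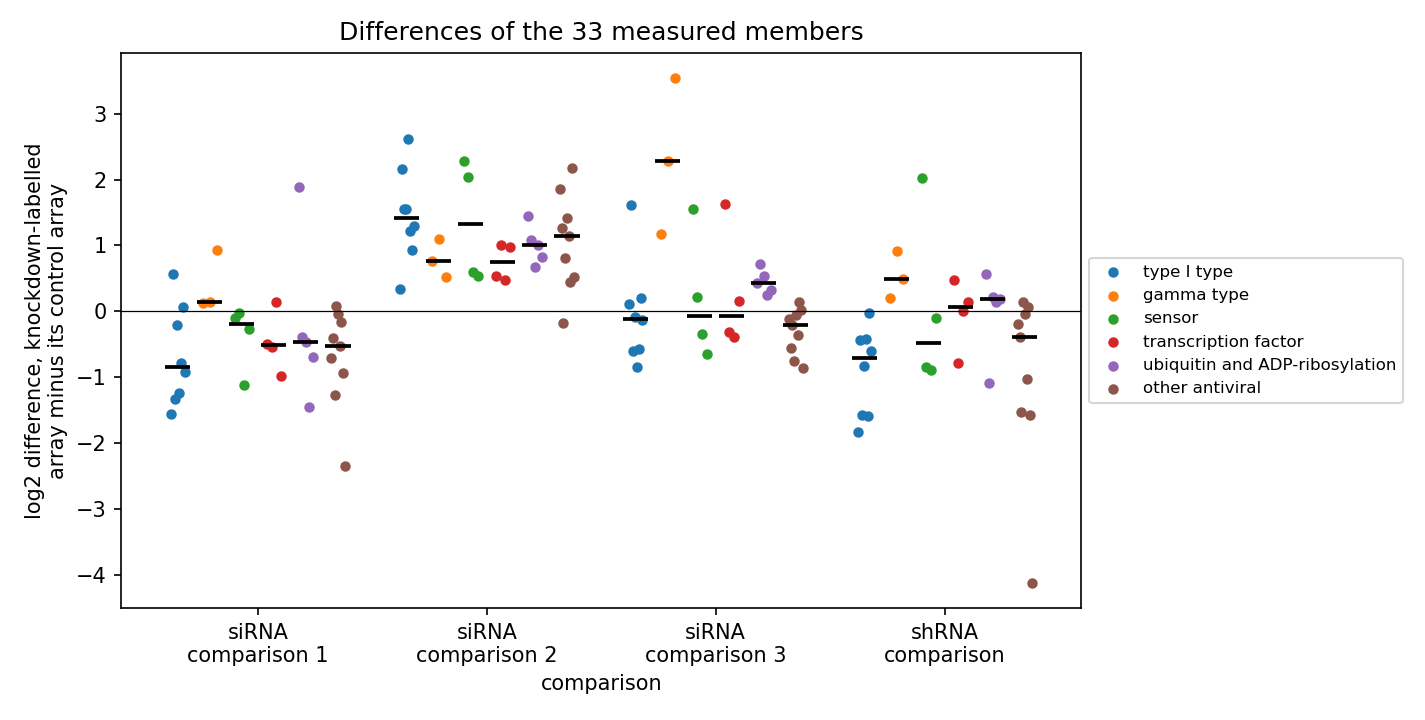
Each point is a member's log2 difference between a knockdown-labelled array and the control array its label names, by role, and black bars are medians. The type I type medians lie at -0.85, 1.42, -0.12 and -0.72 and the gamma type medians at 0.15, 0.76, 2.28 and 0.49, and the lowest point is Trim30d at -4.13 in the shRNA comparison.

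Genes upstream of the response were read from 3 lists. The 10 measured interferon genes had a median siRNA difference of -0.00195, with 5 higher and 5 lower and none passing the test (limma, adjusted p). In siRNA comparison 2, 8 of these 10 were higher (median 0.43), and in siRNA comparison 3, 8 were lower (median -0.26). Ifng, the gamma interferon, lay between 5.21 and 6.08 on all 8 arrays and differed by 0.36 (SE 0.29). Ifnb1 differed by 0.18 and Ifnk by -0.24. On all 8 arrays Ifng, Ifna2, Ifna4, Ifnab, Ifne and Ifnk lay below the array medians, which were 6.25 to 6.58 before normalization. Small differences at such low levels do not show that interferon RNA was unchanged. Ifnl2, a type III interferon (8.54 to 9.43), and Ifna5 (6.97 to 7.58) lay above the medians on all 8 arrays. They differed by 0.07 and -0.06 in the siRNA arm, and by 0.74 and -0.05 in the shRNA comparison. Receptors and JAK-STAT genes had a median of -0.05 over 10 genes, with 8 lower and 2 higher in the mean and 0 passing. Socs1, a feedback inhibitor of interferon gamma signalling, stood at 1.29 (SE 0.51), with 8.59 in siYAP/TAZ 1 and 7.46 in siYAP/TAZ 3 above the siGFP values of 6.42, 6.04 and 6.08 and 6.36 in siYAP/TAZ 2 within them. Tyk2 stood at -0.35. The 12 sensing adaptors and kinases had a median of 0.04 and 0 passing. Ikbke, a kinase upstream of interferon induction, differed by -0.90 (SE 0.36) and Sting1 by 0.69. Ikbke was lower in all 3 siYAP/TAZ arrays than in any siGFP array, as were 2.99% of all genes. The groups only just separated, with 7.210 in siYAP/TAZ 1 and 7.212 in siGFP 2.

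Other genes of both kinds, which were not members, were read from separate lists. The 21 further type I type genes, such as Mx1 and Eif2ak2, had comparison medians of -0.66, 0.81, -0.14 and -0.32 in siRNA comparisons 1 to 3 and the shRNA comparison, with 0 passing the test. Slfn5 stood at 0.78 and Ifi27l2a at -0.58 in the siRNA arm. The 14 further gamma type genes had medians of -0.08, 0.63, 1.32 and 0.32 in the same order and 0.58 in the siRNA arm, with 12 higher and 2 lower in the mean and 0 passing. Iigp1, a GTPase of the Irgm1 family, had 5.37, 5.12 and 5.26 in siGFP 1 to 3, 6.38, 6.27 and 7.23 in siYAP/TAZ 1 to 3, 4.51 in shLacZ and 5.56 in shYAP/TAZ, without overlap in the siRNA arm (log2 difference 1.38, SE 0.34). Cd274, which encodes PD-L1, stood at 1.22 (SE 0.55) and Cxcl10, a chemokine, at 0.61 (SE 0.37). The 2 lower genes, named after their values were seen, were Gbp8 at -0.87 and Cxcl11 at -0.22. The 14 genes, too, had their highest median in siYAP/TAZ 3, at 1.21 relative to the mean over arrays, with siYAP/TAZ 2 next at 0.25. But siYAP/TAZ 1 stood at -0.21, within the values of -0.17, -0.23 and -0.20 in siGFP 1, 2 and 3. By this measure the siRNA groups overlapped here, unlike for the 3 gamma type members. In siRNA comparison 1, 6 of the 14 were higher and 8 lower, against 47% and 53% of all genes.

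Lymphocyte markers also differed between the arrays that differed in the members. Of 11 measured B cell markers, 11 were higher in siRNA comparison 2 (median 3.08) and in siRNA comparison 3 (1.39), and 11 were lower in the shRNA comparison (-0.78), while siRNA comparison 1 had a median of 0.05. Their summed level, as log2 of the summed intensities, was 8.59 to 9.18 in siGFP, 8.56, 11.79 and 10.68 in siYAP/TAZ 1 to 3, 9.24 in shLacZ and 8.39 in shYAP/TAZ. Ms4a1, which encodes CD20, had 8.52 in siYAP/TAZ 2 and 6.99 in siYAP/TAZ 3 and 4.50 to 5.71 on the other 6 arrays, and Cd79a 7.55 and 5.91 against 4.45 to 5.98. Bank1 and Cd22, the B cell markers with the largest siRNA differences, stood at 1.95 (SE 0.95) and 1.94 (SE 0.96). The array highest in B cell markers, siYAP/TAZ 2 (median 2.39 relative to the mean over arrays), was also the highest in type I type genes (1.37). The highest in gamma type genes, siYAP/TAZ 3 (1.89), was the next in B cell markers (1.40). Other arrays went another way. The next in type I type genes, siGFP 3 (1.04), stood at -0.18 in B cell markers. The next in B cell markers after siYAP/TAZ 3, shLacZ (-0.12), was low in type I type (-1.12) and gamma type genes (-1.14). The part of B cells in the member values was not tested.

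T cell markers, which include sources of interferon gamma, had comparison medians of -0.40, -0.39, 0.85 and -0.13, with 8 of 11 higher in siRNA comparison 3. Their summed level ran from 9.37 to 10.65 in siGFP and from 9.83 to 10.57 in siYAP/TAZ, with 11.40 in shLacZ and 10.76 in shYAP/TAZ. Cd3e had 6.95, 6.80 and 5.29 in siGFP 1 to 3 and 6.39, 6.88 and 7.21 in siYAP/TAZ 1 to 3, 8.25 in shLacZ and 7.51 in shYAP/TAZ. Itgae, the integrin of intraepithelial T cells, stood at -0.44 in the siRNA arm. Myeloid markers in the siRNA arm had a median of -0.17 over 12 genes, with Lyz2 at -0.67, Fcgr3 at 0.36 and Csf1r at -0.25. Markers of plasmacytoid dendritic cells, strong makers of type I interferon, had one of 0.19 over 8 genes, with Ly6d at 2.28, Spib at 0.70 and Siglech between 5.32 and 6.09 on all arrays. Among 12 epithelial markers the siRNA median was -0.29, with 11 lower in the mean, Lct (lactase) at -0.92 and Cdx2 at -0.36. The part of these cell types in the member values was not tested.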

How the data were processed

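RNA from 8 samples of isolated intestinal epithelial cells was labelled with the Affymetrix WT kit, per the labels' protocols. The deposited values were intensities per probe set on a linear scale, 1 column per array; background correction, summarisation and software: not given in the sources used here. Lowest values lay just above 16 and medians between 76.4 and 95.5. Because log2 medians spread by 0.32, above the limit of 0.2, log2 values were quantile normalized. Of 28853 probe sets, 21789 named 1 gene (21698 symbols read through an Entrez ID), 1621 named several and were not used, and 5443 had no listed gene. The brightest probe set stood for each of 19938 genes. limma 3.58.1 in R 4.3.3 (lmFit, eBayes, Benjamini-Hochberg over all genes, threshold 0.05) compared 3 siYAP/TAZ with 3 siGFP arrays. A trial on simulated data used independent noise for each gene. It therefore does not show how the fit behaves with the differences between arrays that many genes share here. Differences within label-given pairs, medians and promoter matches are descriptions. Precision is limited by the number of arrays.

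Members and lists were chosen with earlier results of these data known. Array values were given for type I and gamma type members and the 2 smallest p-values (limma) in other roles, and in other lists for the 2 largest differences plus Ifng, Ifnb1, Cxcl10 and defining markers. Promoters matched 25 of 33 members by symbol. Alternatives covered scaling, the subtracted constant, probe sets, dim genes, array weights, the prior, the replicate block and single arrays.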

Additional observations from a re-analysis of the deposited data

Results flagged for a closer look

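Ifit2 was higher in all 3 siRNA comparisons (0.57, 2.16 and 1.62 on the log2 scale) and lower in the shRNA comparison (-0.44). Oasl1 was higher in the siRNA comparisons by 0.07, 0.92 and 0.21 and differed by -0.022 in the shRNA comparison. Both were picked out because the arms had opposite signs. The difference between the arms was not tested, since the shRNA arm has 1 array per group.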

How the results depend on the processing

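With the replicate number as a block, limma called 1 gene and no member, against 0 genes without it, and changed no other call. The labels name each control array, but the values followed the numbers only in part. Deviations from the group means correlated at 0.75, -0.13 and 0.57 for the arrays numbered 1, 2 and 3. For siGFP 3 the correlation with siYAP/TAZ 2 (0.58) was about as high as with siYAP/TAZ 3. Leaving out 1 array gave 0 to 13 called genes, 13 without siYAP/TAZ 1. The medians ran from -0.09 to 0.71 for all members, -0.29 to 0.63 for the type I type and 0.67 to 1.53 for the gamma type. Without both arrays numbered 1, an alternative chosen after seeing the data, they were 0.58, 0.57 and 1.69. Single genes changed sign: Oas3 to 7.73e-05 with 75th percentile centring, Bst2 to -0.0019 without normalization and, with array weights, Ifit1 to 0.32, Ifit3 to 0.33, Oas3 to 0.54, Ddx58 to 0.48, Ifih1 to 0.21, Parp14 to 1.28 and Trim30d to 0.39; the cause was not tested. Leaving out 1 array, these spanned 0: Ifit1 (-0.74 to 0.23), Ifit3 (-0.77 to 0.55), Oas2 (-0.50 to 1.02), Oas3 (-0.43 to 0.46), Oasl2 (-0.28 to 0.51), Ddx58 (-0.63 to 0.33), Ifih1 (-0.34 to 0.20), Irf1 (-0.10 to 1.19), Irf7 (-0.25 to 0.35), Irf9 (-0.18 to 0.32), Stat2 (-0.43 to 0.68), Parp9 (-0.077 to 0.56), Parp14 (-0.72 to 0.82), Dtx3l (-0.14 to 0.50), Mx2 (-0.17 to 1.08), Rsad2 (-0.36 to 0.79), Bst2 (-0.21 to 0.32), Rtp4 (-0.26 to 0.50), Ifi35 (-0.14 to 0.54), Trim30a (-0.12 to 1.11) and Trim30d (-1.50 to 0.21). Ifit2, Irgm1, Ubd and Usp18 had siRNA groups that did not overlap under each of the 4 scalings. The median SE of a member was 0.50, and with 3 arrays a group no member difference, up to 1.66 for Ubd, passed the adjusted test.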
